A study of Mus musculus with 22 samples.

Results

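Immune cells of the fetal mouse lung were compared with the endothelial and epithelial cells of the same lungs at embryonic day 16.5 (E16.5). The comparison set 2 immune libraries against the mean of 2 endothelial and 2 epithelial libraries, which are 6 of the 22 RNA sequencing libraries of the series. It covered the 11366 of 24344 genes that had a value of at least 1 in 2 or more of these 6 libraries. All groups were wild-type C57BL6 mice with no transgene and no treatment, and the E16.5 lungs came from embryos of timed pregnant mice. The labels name the antigen CD45 for the immune fraction, CD31 for the endothelial fraction and CD326 (Epcam) for the epithelial fraction. All 6 libraries carried the number of the same sequencing run, and a code shared between the fractions tied each immune library to 1 endothelial and 1 epithelial library of what is read here as the same pool of animals. Immune, endothelial and epithelial libraries of postnatal days 7 and 28 (P7 and P28), 2 of each fraction at each age, served to compare the fetal difference with later ones. They also entered the shared estimate of the spread, as did 2 endothelial and 2 epithelial libraries of E18.5.

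Leukocytes of the fetal lung descend from blood-forming sites outside it, the yolk sac and the fetal liver among them. Macrophages and monocytes arrive while the airways still branch, before there is air or inhaled particles to deal with, and alveolar macrophages mature around birth from such fetal precursors. Immune cells carry CD45, a membrane phosphatase encoded by Ptprc, and many myeloid receptors signal through the adaptors Tyrobp (DAP12) and Fcer1g, whose ITAM motifs recruit the kinase Syk.

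Values are in the deposited signal unit, in which every library summed to 228405, so a value is a gene's part of a fixed total, and read depth cannot be recovered from it. In the 6 libraries, 9545 to 10432 genes were at 1 or above. Differences are on the scale log2(value + 1), which understates the change of low genes, and are given with the standard error (SE) of the limma model. "Higher than both" is used for a gene whose immune level was higher than the endothelial and than the epithelial level, each at an adjusted p below 0.05. A gene high in the immune libraries alone passed the filter of 1 in 2 libraries through them, so counts and medians over the tested members of a list describe those members and not the whole list. Whether less RNA of a gene reflects fewer cells of a type or less RNA per cell cannot be told apart in such bulk libraries.

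The marker of the sort and the common adaptor followed the labels. Ptprc (chr1:138062861-138175708, minus strand of GRCm38) had values of 6.99 and 14.04 in the immune libraries, 0.0130 and 0.0760 in the endothelial libraries and 0.0349 and 0.00285 in the epithelial libraries. The immune libraries did not overlap with the other 4, and the difference was 3.41 ± 0.21 (SE; limma adjusted p = 1.8e-08). Tyrobp (chr7:30413760-30417585, plus strand) had values of 123 and 69.2 in the immune libraries, 0.309 and 0.631 in the endothelial libraries and 0.345 and 0.169 in the epithelial libraries. Here too both immune libraries lay above the other 4, by 6.11 ± 0.43 (limma adjusted p = 7.2e-08). Pecam1, the antigen CD31, had values of 2.73 and 6.98 in the immune libraries, 72.2 and 75.8 in the endothelial libraries and 4.84 and 0.671 in the epithelial libraries. It was high in the endothelial libraries alone, and the immune libraries overlapped with the epithelial ones.

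Epithelial transcripts were plentiful in the immune libraries. Epcam, the antigen used for the epithelial sort, had values of 44.8 and 25.6 in the immune libraries, 4.80 and 0.564 in the endothelial libraries and 70.9 and 86.8 in the epithelial libraries. Both immune libraries lay between the endothelial and the epithelial ones. Across 14 epithelial marker genes, the median level was 50.4% of the epithelial mean in immune replicate 1 and 32.3% in immune replicate 2, against 7.56% and 0.68% in the endothelial libraries. The summed level of the list was 828 and 508.5 in the immune libraries, 111.3 and 11.9 in the endothelial ones and 1405 and 1656 in the epithelial ones, and no epithelial marker was at 0 in an immune library. Endothelial markers reached a median of 4.56% and 7.57% of the endothelial mean in the immune libraries. In the reverse direction, immune identity genes stood at a median of 0.148% to 1.16% of the immune mean in the 4 other libraries. The part of these epithelial transcripts in the immune differences was not tested. Across genes, which are not independent replicates, the immune libraries had Pearson's r of 0.968 with each other, 0.844 to 0.862 with the epithelial libraries and 0.766 to 0.820 with the endothelial ones.

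The 2 immune libraries also differed from each other in a set of genes, Rag1 and Cd3e among them. Among the 3509 genes at 10 or more in 1 or both, 26 were higher in replicate 2 by at least 2 on the log2 scale and 1 was higher in replicate 1 by that much. These genes are described further on, and list counts are given with and without each immune library where leaving it out changed them by over 1.5 times. The descriptions of 2 further libraries, endothelial replicate 2 and epithelial replicate 1, carried another embryonic age than their titles. Both share the pool code of immune replicate 2, whose own description carried no other age. The fit without these 2 libraries kept immune replicate 2, so it does not leave out that whole pool.

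Against the mean of the other fractions, 936 genes (8.24% of those tested) were higher in the immune fraction and 993 (8.74%) were lower, with a median difference over all genes of -0.02. Against the endothelial level alone, 1802 genes (15.9%) were higher and 1397 (12.3%) lower, and against the epithelial level alone, 967 (8.51%) were higher and 1039 (9.14%) lower. That near-even split was not kept in other fits: 907 were higher and 405 lower with log2(value + 0.1), 980 and 675 with size factors, 736 and 335 without the 2 libraries whose descriptions carry another age, 804 and 405 without epithelial replicate 1, 589 and 410 without epithelial replicate 2 and 641 and 258 without immune replicate 2. A total of 596 genes (5.24%) were higher than both other fractions and 160 (1.41%) were lower than both. A further 399 genes (3.51%) were above the endothelial and below the epithelial level, and 66 (0.581%) the reverse. Beside these, both immune libraries lay above all 4 other libraries for 1723 genes (15.2%) and below all 4 for 1613 (14.2%). The count of genes lower than both fell to 20 without the 2 libraries whose descriptions carry another age and to 30 without immune replicate 2, whereas the count higher than both ran from 445 to 522 in these fits and those without 1 library.

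**Figure D1:**
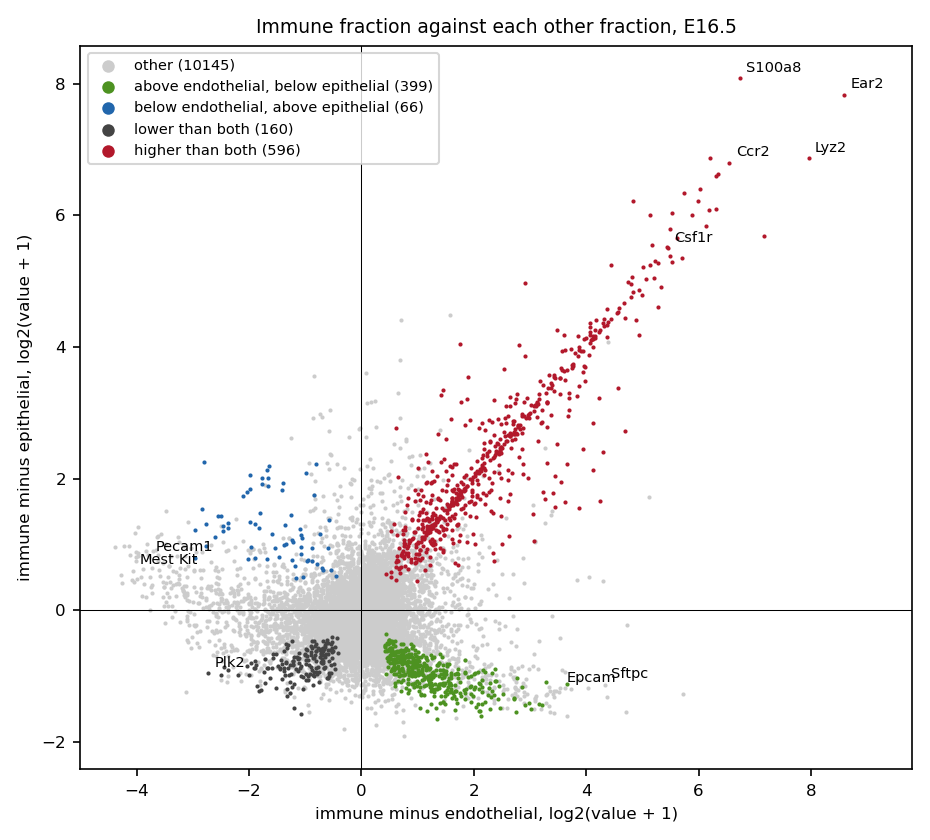
Each point is 1 of the 11366 genes tested. The horizontal axis gives the immune minus endothelial difference and the vertical axis the immune minus epithelial difference at E16.5, both on the log2(value + 1) scale. The 596 genes higher than both (red) run along the diagonal to Lyz2, Ear2 and S100a8, the 160 lower than both (dark grey) stay near the origin, and Epcam and Sftpc lie to the right and below 0.

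The genes listed as marking leukocytes as such were higher than both without exception. All 18 members of the immune identity list were called, with a median difference from the mean of the other fractions of 3.65. The list holds Ptprc, the gene of the sort antigen, and was written with earlier results of these data known. Its count is therefore a description of the sorted fraction and not a test. Fcer1g, the Fc receptor gamma chain, had values of 220.2 and 155 in the immune libraries, 0.859 and 1.79 in the endothelial libraries and 1.64 and 0.335 in the epithelial libraries. The immune libraries did not overlap with the rest, and the difference was 6.49 ± 0.45 (limma adjusted p = 4.8e-08). Coro1a, an actin-binding protein of leukocytes, stood at 104 and 135 in the immune libraries against at most 0.678 elsewhere. Laptm5, a lysosomal membrane protein of blood cells, stood at 83.8 and 80.5 against at most 1.60, and Rac2, the blood cell form of the Rac GTPases, at 38.2 and 51.5 against at most 0.544. Lcp1, the actin bundler L-plastin, was the member with the smallest difference, 1.70 ± 0.29, with 14.8 and 13.98 in the endothelial and 8.35 and 8.64 in the epithelial libraries. All 18 members stayed higher than both when either immune library was left out.

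Most receptors that signal through ITAM adaptors, their inhibitory counterparts and the kinases behind them were higher in the immune fraction. Of 24 members, 23 were higher than the mean of the other fractions and 19 were higher than both, with a median difference of 2.48. The receptor Pirb, which inhibits by recruiting phosphatases, had values of 22.2 and 18.7 in the immune libraries, 0 and 0.0549 in the endothelial libraries and 0.0553 and 0 in the epithelial libraries. Pilra, another paired receptor, had 39.6 and 26.5 in the immune libraries and at most 0.363 elsewhere. Fc receptors were among them, with Fcgr3 at 27.5 and 18.3 against at most 0.212 and Fcgr1, the high-affinity IgG receptor, at 16.7 and 10.02 against at most 0.118. Sirpa, which reads the "do not eat" ligand CD47, stood at 30.1 and 24.1 against at most 1.55, a difference of 3.73 ± 0.40 (limma adjusted p = 6.5e-06). Lcp2, the adaptor SLP-76 downstream of Syk, had 12.9 and 14.1 against at most 0.145. The exception was the kinase Lyn, at 5.48 and 4.98 in the immune libraries, 5.26 and 6.46 in the endothelial libraries and 0.886 and 0.319 in the epithelial libraries. Its immune level overlapped with the endothelial one, and the difference from the mean of the others was 0.92 ± 0.33 (limma adjusted p = 0.072).

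**Figure D2:**
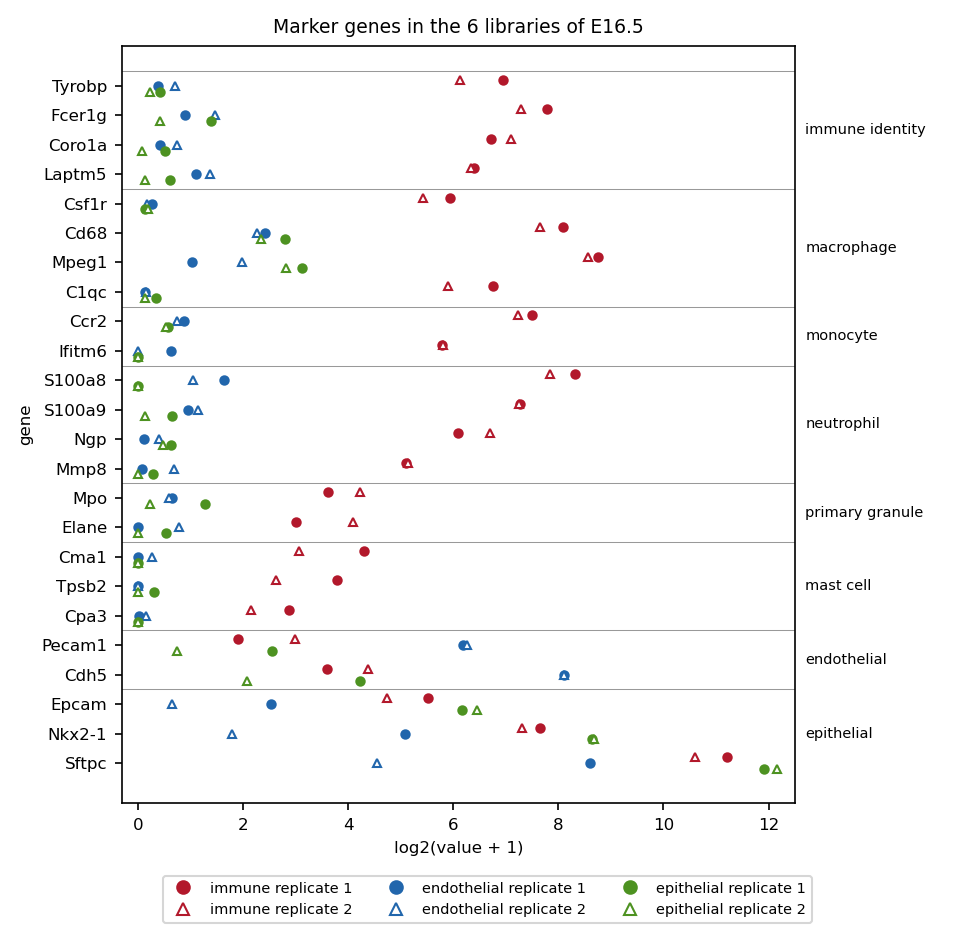
Values of marker genes in the 6 E16.5 libraries on the log2(value + 1) axis, grouped by list; filled circles are replicate 1 and open triangles replicate 2. Red immune points lie to the right of the blue endothelial and green epithelial points for the leukocyte lists, and between the blue and green points for Epcam, Nkx2-1 and Sftpc.

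Most macrophage genes were higher in the immune fraction. Of 18 macrophage list members tested, 16 were higher than both and 17 were higher than the mean of the others, with a median difference of 3.01, while 6 members did not reach the filter. Csf1r, the receptor for the macrophage growth factors CSF1 and IL-34, had values of 60.3 and 41.8 in the immune libraries, 0.206 and 0.134 in the endothelial libraries and 0.102 and 0.150 in the epithelial libraries. The immune libraries stood apart from all others by 5.48 ± 0.45 (limma adjusted p = 3.1e-07). The complement component C1qc, a product of tissue macrophages, had values of 107 and 59.2 in the immune libraries, 0.0942 and 0.110 in the endothelial libraries and 0.280 and 0.103 in the epithelial libraries. It was near 0 in every other library, as was C1qb, at 64.1 and 32.9 against at most 0.567. Mpeg1, a pore-forming protein of phagosomes, reached 433 and 380.0 against at most 7.73. Cd68, a lysosomal glycoprotein, reached 271 and 202 against at most 6.01. The mannose receptor Mrc1 had values of 17.6 and 12.1 in the immune libraries, 1.01 and 1.14 in the endothelial libraries and 0.115 and 0.0312 in the epithelial libraries, and the fractalkine receptor Cx3cr1 had 23.4 and 11.9 against at most 0.0448. Stab1, a scavenger receptor that endothelium also carries, passed against the mean and the epithelial level but not against the endothelial one. It had 28.99 and 17.9 in the immune and 20.8 and 22.2 in the endothelial libraries. The list count was 16 without either immune library, and the list's summed level was 1078 in replicate 1 and 804 in replicate 2.

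Monocyte genes followed. Of 14 members, 13 were tested and 9 were higher than both, with a median difference of 2.26. Against the mean of the others 10 were higher and 0 lower, though 1 was lower at an unadjusted limma p below 0.05. Against the endothelial level 1 member was called lower. Ccr2 (chr9:124101950-124113557, plus strand), the chemokine receptor that brings monocytes out of blood-forming organs, had values of 180.4 and 149.8 in the immune libraries, 0.843 and 0.688 in the endothelial libraries and 0.501 and 0.460 in the epithelial libraries. The 2 immune libraries lay far above the rest, by 6.68 ± 0.38 (limma adjusted p = 5.1e-09). Ifitm6 stood at 54.5 and 55.1 against at most 0.542, and Ly6c2, which encodes a part of the Ly6C antigen of inflammatory monocytes, at 21.1 and 10.6 against at most 1.94. Ly6c2 has a near-identical neighbour, Ly6c1, and reads may be split between them. Hp, encoding haptoglobin, was high in both the immune (30.8 and 26.2) and the epithelial (42.8 and 25.7) libraries and near 0 in the endothelial ones (0.145 and 0.0845). Vcan and Nr4a1 were among the members that did not pass against the mean, at differences of 0.54 ± 0.30 and -0.03 ± 0.49 (limma adjusted p = 0.26 and 0.98).

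The genes of mature alveolar macrophages divided. Of 15 list genes in the matrix, 8 did not reach the filter at E16.5, 7 were tested, and 3 were higher than both: Ear1, Ear2 and Plet1. Ear2 (chr14:44102654-44103534, plus strand), an eosinophil-associated ribonuclease that alveolar macrophages also make, had values of 566 and 464 in the immune libraries, 0 and 0.779 in the endothelial libraries and 1.41 and 1.09 in the epithelial libraries. It had the largest difference of the 11366 genes, 8.21 ± 0.91 (limma adjusted p = 8.8e-06), with no overlap between the groups. Ear1 had 14.98 and 14.7 against at most 0.498. The Ear genes are a family of close copies, so the division of reads between Ear1 and Ear2 is uncertain. Against these, Itgax (CD11c) was at 0.744 and 1.19, Siglecf at 0.475 and 0.300 and the scavenger receptor Marco at 0.640 and 0.509 in the immune libraries. The proton pump subunit Atp6v0d2 was at 0.137 and 0.0534, and these 4 genes were below the filter. Chil3, a secreted chitinase-like protein, was at 1.22 and 2.96 and at 0 elsewhere, and did not pass (limma adjusted p = 0.15). Pparg, the lipid-sensing factor that alveolar macrophages need, was low, with values of 1.19 and 1.12 in the immune libraries, 0.0794 and 0.0741 in the endothelial libraries and 0.0438 and 0.0693 in the epithelial libraries. It was nevertheless higher than both, with a difference of 1.02 ± 0.19 (limma adjusted p = 0.0013). Fabp5 was in the immune (32.3 and 32.1) and epithelial (29.7 and 34.1) libraries alike.

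Neutrophil genes were higher than both in 13 of 14 tested members of a list of 16, with a median difference of 3.88, and all 14 were higher than the mean of the others. In the other 4 libraries these genes stood at a median of 0.108% to 0.639% of the immune mean. Members high in the immune libraries alone passed the filter through them, so the count is a description only. S100a8 (chr3:90668978-90670035, plus strand), a subunit of calprotectin, had values of 320.2 and 228 in the immune libraries, 2.13 and 1.06 in the endothelial libraries and 0 and 0 in the epithelial libraries. Its partner S100a9 had values of 153 and 152 in the immune libraries, 0.948 and 1.22 in the endothelial libraries and 0.563 and 0.103 in the epithelial libraries. Both immune libraries of both genes lay above the other 4, with differences of 7.41 ± 0.57 and 6.54 ± 0.31 (limma adjusted p = 1.7e-07 and 6.8e-10). The contents of secondary and tertiary granules were there too. Ngp stood at 66.8 and 104 against at most 0.543, Camp, the precursor of cathelicidin, at 8.71 and 12.8 against 0, and the collagenase Mmp8 at 33.5 and 34.3 against at most 0.612. Retnlg was at 17.6 and 17.8 and at 0 in every other library. The chemokine receptor Cxcr2, which late neutrophils carry, had 16.4 and 16.9 against at most 0.802. None of the 6 eosinophil markers reached the filter of 1 in 2 libraries, which a gene high in 1 library alone also misses. Their summed level was 2.49 in immune replicate 1 and 6.95 in immune replicate 2.

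The primary granule genes mark an earlier step of the granulocyte line, the promyelocyte. Of 9 members, 6 were tested and 5 were higher than both, with a median difference of 1.63. Myeloperoxidase, Mpo, had values of 11.3 and 17.8 in the immune libraries, 0.579 and 0.515 in the endothelial libraries and 1.43 and 0.181 in the epithelial libraries. Neutrophil elastase, Elane, had values of 7.10 and 16.02 in the immune libraries, 0 and 0.718 in the endothelial libraries and 0.457 and 0 in the epithelial libraries. Both stood above all other libraries, with differences of 3.23 ± 0.57 and 3.22 ± 0.71 (limma adjusted p = 7.9e-04 and 0.0044). Replicate 2 was higher than replicate 1 for both, and without replicate 2 the Elane difference was 2.69 with a limma adjusted p of 0.081. Ctsg, encoding cathepsin G, had 1.52 and 2.27 and was at 0 in every other library. Srgn, the granule proteoglycan, had 32.2 and 36.7 in the endothelial and 12.3 and 15.7 in the immune libraries, without passing against that level (limma adjusted p = 0.18).

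Mast cell proteases were measured in both immune libraries. Of 14 mast cell and basophil list members, 7 did not reach the filter and 6 of the other 7 were higher than both. These 6 passed the filter through the immune libraries alone, so their count is a description only. The chymase Cma1 (chr14:55941451-55944675, minus strand) had values of 18.7 and 7.41 in the immune libraries, 0 and 0.213 in the endothelial libraries and 0 and 0 in the epithelial libraries. The tryptase Tpsb2 had 12.8 and 5.20 against at most 0.247, and carboxypeptidase Cpa3 had 6.39 and 3.48 against at most 0.116. Mcpt2 was at 6.44 and 4.25 and at 0 elsewhere. Replicate 1 had the higher value of all 4, and the summed level of the list was 61.7 in replicate 1 and 29.1 in replicate 2. The differences were 3.62 ± 0.31 for Cma1 and 2.64 ± 0.12 for Mcpt2 (limma adjusted p = 6.3e-07 and 4.5e-10). The receptor Kit, which mast cells carry but which lung endothelium also expressed, went the other way, with values of 2.34 and 3.28 in the immune libraries, 34.3 and 41.9 in the endothelial libraries and 2.99 and 0.556 in the epithelial libraries. Without immune replicate 1, Ms4a2, the beta chain of the IgE receptor, lost its call (1.06, limma adjusted p = 0.058), as did Kit (-1.20, limma adjusted p = 0.098). Prss34, a protease of basophils, had 3.96 and 1.90 against at most 0.166, while Mcpt8 was not tested.

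The tools of phagocytosis and killing followed the myeloid genes. All 5 tested subunits of the phagocyte oxidase, which makes superoxide in the phagosome, were higher than both, with a median difference of 2.42. Its catalytic subunit Cybb had values of 46.8 and 39.5 in the immune libraries, 0.0258 and 0.331 in the endothelial libraries and 0.217 and 0.00939 in the epithelial libraries. The cytosolic subunit Ncf1 had values of 60.9 and 44.98 in the immune libraries, 1.501 and 0.714 in the endothelial libraries and 7.41 and 6.75 in the epithelial libraries. Both immune libraries were above all others for each, by 5.27 ± 0.43 and 3.71 ± 0.43 (limma adjusted p = 3.7e-07 and 1.5e-05). Of 20 lysosomal enzymes and related proteins, 14 were higher than the mean of the others and 10 were higher than both, with a median difference of 1.5. Lysozyme Lyz2 (chr10:117277331-117282321, minus strand), which breaks down bacterial cell walls, had values of 2197 and 1558 in the immune libraries, 5.33 and 7.73 in the endothelial libraries and 14.8 and 14.7 in the epithelial libraries. The immune libraries stood apart by 7.42 ± 0.45 (limma adjusted p = 1.3e-08). Ifi30, a thiol reductase of antigen processing, had 154 and 103 against at most 28.1. The cathepsins varied: Ctsb was at 75.9 and 48.4 in the immune libraries, 14.1 and 13.6 in the endothelial libraries and 18.1 and 17.4 in the epithelial libraries and was higher than both, Ctsh had 118 and 155 in the epithelial and 81.6 and 64.7 in the immune libraries, and Ctsl had 59.5 and 43.5 in the immune ones with values of the other fractions on both sides. The lysosomal count was 6 without immune replicate 1 and 8 without immune replicate 2, and the list's summed level was 3501 and 2492 in the 2 libraries.

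Most sensors of microbes were higher in the immune fraction. Of 25 pattern recognition genes, 23 were tested, and of these 18 were higher than both and 19 were higher than the mean, with a median difference of 1.96. The lipoprotein receptor Tlr2 had values of 41.4 and 30.4 in the immune libraries, 1.26 and 1.79 in the endothelial libraries and 0.979 and 1.08 in the epithelial libraries. Tlr13, which detects bacterial ribosomal RNA, had 26.4 and 21.3 against at most 0.221, and Tlr9, which detects unmethylated DNA, 19.9 and 13.1 against at most 0.274. The beta-glucan receptor Clec7a had 21.2 and 16.7 against at most 0.397. Both immune libraries were above all others for these 4 genes. Tlr3 was different: it was highest in the endothelial libraries (20.02 and 20.8, against 5.94 and 5.77 in the immune ones). Of 13 complement genes, 10 were tested and 6 were higher than both. Among these were the receptors C3ar1 (96.97 and 59.5 against at most 1.21) and C5ar1 (22.9 and 20.8 against at most 0.107), properdin Cfp (33.7 and 22.8 against at most 2.30) and the central component C3 (52.6 and 46.6 against at most 1.48). Cd59a, which protects cells from the lytic complex, was lower than the mean of the others, with a difference of -0.94 ± 0.16 (limma adjusted p = 5.6e-04).

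Chemokine genes were higher than both in 8 of 15 tested members of a list of 26, with a median difference of 1.89. Ccl3, which draws leukocytes to a site, had values of 46.4 and 10.9 in the immune libraries, 0.763 and 1.56 in the endothelial libraries and 0.284 and 0.208 in the epithelial libraries. Replicate 1 was well above replicate 2, and both were above the rest. Ccl9 had 52.5 and 31.3 against at most 0.837, Ccl6 30.5 and 18.2 against at most 0.167 and Ccl12 30.3 and 17.5 against 0 in every other library. Pf4, a chemokine of platelets and of fetal macrophages, had values of 106 and 56.3 in the immune libraries, 2.78 and 3.60 in the endothelial libraries and 7.34 and 7.42 in the epithelial libraries. It was higher than both, by 3.72 ± 0.54 (limma adjusted p = 1.5e-04), while 6 other tested megakaryocyte and platelet genes, among them Ppbp and Gp1ba, were not. Of 14 chemokine receptors, 9 were tested and 6 were higher than both, among them Ccr1, Ccr2, Cxcr2, Cxcr3 and Cx3cr1. Cxcr4 was at 18.4 and 40.9 in the immune libraries, 35.03 and 30.8 in the endothelial libraries and 12.6 and 13.3 in the epithelial libraries. The immune and endothelial libraries overlapped, and both epithelial ones were lower. The decoy receptor Ackr3 was endothelial, at 52.7 and 59.2 against 2.39 and 3.48 in the immune libraries.

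Growth and homing signals were described from a list of ligand and receptor pairs. Of 15 receptors tested, 8 were higher than both, and of 10 ligands tested, 1 was, Ccl2. Ccl2, the ligand of CCR2, had values of 11.97 and 4.23 in the immune libraries, 0.781 and 1.64 in the endothelial libraries and 0.232 and 0 in the epithelial libraries. Csf2rb, the shared beta chain of the GM-CSF, IL-3 and IL-5 receptors, had 50.9 and 38.1 against at most 1.31. Its partner Csf2ra had values of 72.6 and 58.6 in the immune libraries, 6.71 and 4.17 in the endothelial libraries and 17.2 and 28.99 in the epithelial libraries. Both immune libraries were the highest of the 6. The difference from the mean of the others was 2.45 ± 0.44 (limma adjusted p = 0.001), and Csf2ra did not pass against the epithelial level (limma adjusted p = 0.055). Csf2, the gene of GM-CSF itself, had values of 0.643 and 1.51 in the immune libraries, 0.111 and 0 in the endothelial libraries and 1.99 and 5.23 in the epithelial libraries. Both epithelial libraries were above both immune ones, and the test against them did not pass (limma adjusted p = 0.055). Csf1 was at 2.72 and 1.65 in the immune libraries, 4.72 and 3.66 in the endothelial libraries and 2.24 and 1.02 in the epithelial libraries, with both endothelial libraries above the other 4 and overlap between the immune and epithelial ones. Kitl, the ligand of KIT, and Cxcl12, the ligand of CXCR4, were endothelial. Kitl stood at 10.8 and 10.7 in the endothelial and 1.12 and 1.59 in the immune libraries, and Cxcl12 at 187 and 122 in the endothelial and 9.92 and 12.4 in the immune ones. The difference of Kitl from the endothelial level was -2.33 ± 0.26 and that of Cxcl12 was -3.65 ± 0.50 (limma adjusted p = 6.0e-06 and 4.3e-05).

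Inflammatory cytokines were mostly low. Of 22 cytokine genes, 12 did not reach the filter, among them Il1b, Il6, Il10 and Ifng, and 3 of the 10 tested were higher than both: Il1rn, Tnf and Osm. Tnf had values of 6.401 and 2.31 in the immune libraries, 0.111 and 0.129 in the endothelial libraries and 0 and 0 in the epithelial libraries. Oncostatin M, Osm, had values of 8.08 and 2.16 in the immune libraries, 0 and 0.242 in the endothelial libraries and 0 and 0 in the epithelial libraries. Replicate 1 was higher than replicate 2 for both, and both replicates were above all other libraries, by 2.23 ± 0.32 and 2.34 ± 0.28 (limma adjusted p = 1.5e-04 and 2.2e-05). Il1rn, which blocks the IL-1 receptor, had 3.85 and 3.25 against at most 0.119. In the immune libraries the summed level of 12 immediate early and dissociation genes was 1086 in replicate 1 and 488 in replicate 2, and its part in the replicate difference of Ccl3, Tnf and Osm was not tested. None of these 12 genes was called against the mean of the others by limma, and 3 had an unadjusted p below 0.05. Of 23 cytokine receptors, 10 were higher than both, Il17ra among them at 81.2 and 69.9 against at most 6.83. The interferon response list had 0 of 9 members higher than both, also at an unadjusted p below 0.05 in each comparison. Irf7 was higher than the mean of the others, by 1.13 ± 0.26 (limma adjusted p = 0.0059), and lost that call without immune replicate 1, at 1.02.

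Antigen presentation genes were not confined to the immune fraction, though H2-Ab1 and Cd74 were low in the endothelial libraries. Of 7 tested genes of dendritic cells and MHC class II, 3 were higher than both, H2-Aa, H2-Ab1 and H2-DMa. Against the endothelial level alone 1 of the 7 was called lower. Flt3, Xcr1, Ccr7 and Siglech were among the 9 that did not reach the filter. H2-Ab1, a class II beta chain, had values of 21.3 and 23.1 in the immune libraries, 0 and 0.387 in the endothelial libraries and 8.65 and 0.982 in the epithelial libraries. Epithelial replicate 1 was well above the other non-immune libraries, and the immune libraries were above it. Cd74, the invariant chain, had values of 56.4 and 53.7 in the immune libraries, 1.03 and 0.272 in the endothelial libraries and 21.8 and 11.6 in the epithelial libraries. Of 9 class I genes tested, 5 were higher than both. Against the mean of the others 7 were higher and 1 was lower, and against the endothelial level 1 was lower. H2-K1 had values of 85.8 and 69.9 in the immune libraries, 20.4 and 16.6 in the endothelial libraries and 42.1 and 34.6 in the epithelial libraries, and the immunoproteasome subunit Psmb8 had values of 31.4 and 58.3 in the immune libraries, 15.2 and 9.33 in the endothelial libraries and 2.94 and 0.785 in the epithelial libraries. Both genes were higher than in either other fraction, with differences of 1.51 ± 0.27 and 2.90 ± 0.32 (limma adjusted p = 7.9e-04 and 8.3e-06). Beta-2 microglobulin, B2m, was at 441 and 361 in the immune and 284 and 253 in the endothelial libraries, and passed only against the epithelial level and the mean.

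**Figure D3:**
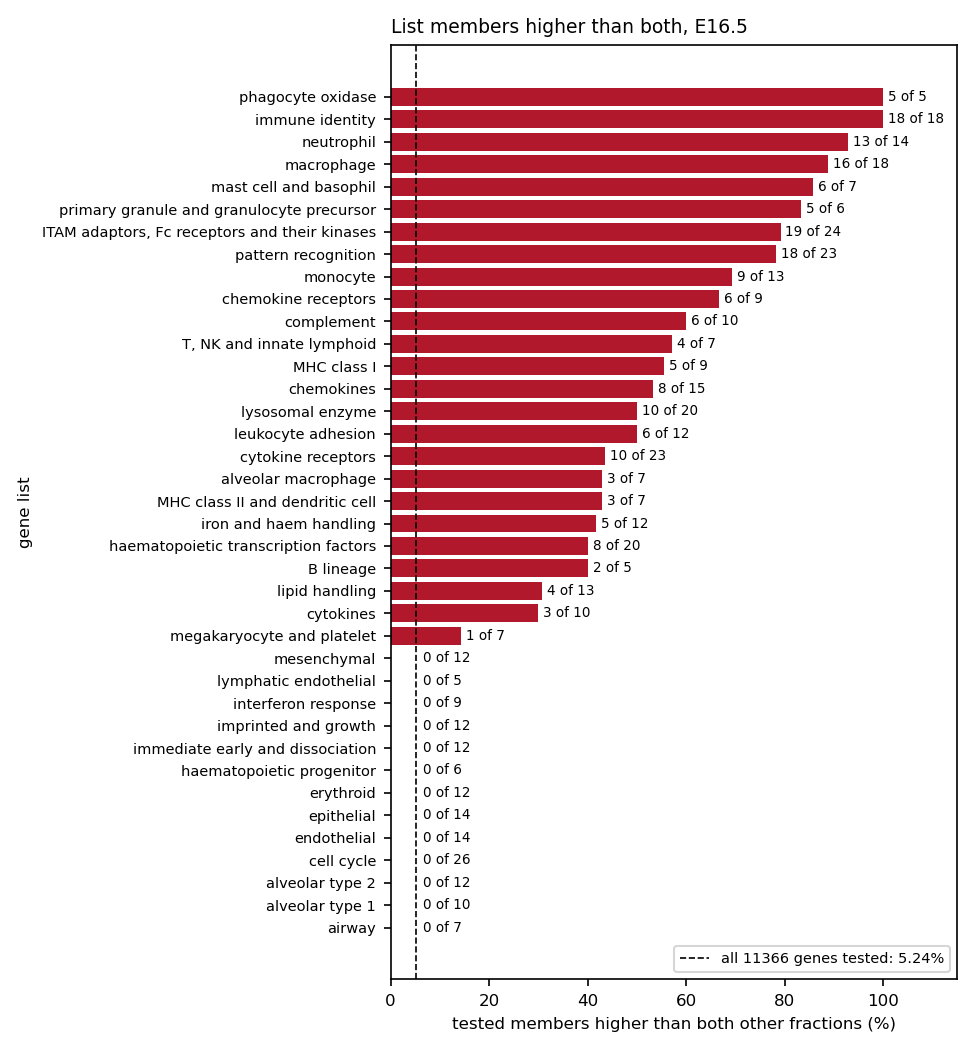
Share of tested list members that were higher than both other fractions, in percent, for lists with 5 or more tested members; the counts stand beside the bars. The dashed line is the 5.24% of all 11366 genes. The immune identity and phagocyte oxidase lists have every tested member higher than both, and 13 lists, cell cycle and the endothelial and epithelial lists among them, have no member higher than both. The lists were written with earlier results of these data known, and a gene high in the immune libraries alone passed the filter through them. The shares are therefore descriptions and not tests.

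Among 20 haematopoietic transcription factors tested, 8 were higher than both: Spi1, Runx1, Ikzf1, Irf8, Irf5, Maf, Pparg and Tfec. Spi1, which encodes PU.1, the factor that commits cells to the myeloid line, had values of 8.94 and 6.66 in the immune libraries, 0.0155 and 0 in the endothelial libraries and 0 and 0 in the epithelial libraries. Maf, a factor of mature macrophages, had values of 92.04 and 63.6 in the immune libraries, 16.7 and 28.2 in the endothelial libraries and 9.69 and 6.06 in the epithelial libraries. The immune libraries did not overlap with the rest for either gene, with differences of 3.12 ± 0.32 and 2.47 ± 0.32 (limma adjusted p = 3.3e-06 and 5.2e-05). Irf8, needed for monocytes and dendritic cells, had 11.6 and 7.92 against at most 0.471. Ikzf1, a lymphoid and stem cell factor, had 8.50 and 20.2 against at most 0.721, higher in replicate 2. Other blood factors were shared with a neighbour. Cebpa had 36.3 and 39.6 in the epithelial and 22.97 and 17.5 in the immune libraries, and Gata2, Lmo2 and Tal1 were below the endothelial and above the epithelial level. Tal1 had values of 2.57 and 2.31 in the immune libraries, 21.97 and 22.5 in the endothelial libraries and 1.68 and 0.146 in the epithelial libraries. Its endothelial level was far above the rest. Gata1, Klf1, Gata3, Pax5 and Ebf1, which mark the erythroid and lymphoid lines, did not reach the filter.

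The promoters of the genes higher than both were read for the letters GAGGAAGT, a strong form of the site that PU.1 binds, because Spi1 was among them. Windows were the 250 bases before the start of each gene in the RefSeq table for GRCm38.p6, 1 promoter a gene, and both strands were read, the other strand reading ACTTCCTC. A match was found in 9.82% of the 448 genes higher than both that had a promoter in the table, in 1.57% of 127 genes lower than both, in 2.58% of 8594 tested genes and in 2.44% of all 27025 promoters. The RUNX letters TGTGGTTT were in 2.68% of the promoters of genes higher than both and 1.0% of those of tested genes. The C/EBP letters TTGCNNAAT were in 2.01% and 1.38%. These shares describe the windows, and a match is not evidence that a factor binds. A match to the PU.1 letters was in the windows of 11 named genes, 9.82% of the named genes higher than both whose promoter was read. Genes on 1 chromosome, Csf1r and Cd74 among them, were left out of this step. The windows of 3 of these 11 hold no annotated exon, and they are shown because they stand for a monocyte, a neutrophil and a platelet or macrophage gene. The match is in capitals, and each sequence is given 5′ to 3′ on the strand of its gene. They come from chr15:75111972-75112221 (minus strand), chr9:7558179-7558428 (plus strand) and chr5:90772185-90772434 (plus strand), and the matches begin 108, 221 and 10 bases before the start.
Ly6c2: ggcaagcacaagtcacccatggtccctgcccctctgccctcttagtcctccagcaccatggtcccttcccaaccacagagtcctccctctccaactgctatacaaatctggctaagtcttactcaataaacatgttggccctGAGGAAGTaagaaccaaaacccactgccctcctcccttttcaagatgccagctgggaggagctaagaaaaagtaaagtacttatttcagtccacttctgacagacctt
Mmp8: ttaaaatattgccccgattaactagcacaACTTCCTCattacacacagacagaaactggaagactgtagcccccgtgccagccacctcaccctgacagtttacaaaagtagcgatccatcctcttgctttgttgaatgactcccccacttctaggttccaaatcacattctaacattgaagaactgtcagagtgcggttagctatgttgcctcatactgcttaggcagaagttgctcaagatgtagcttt
Pf4: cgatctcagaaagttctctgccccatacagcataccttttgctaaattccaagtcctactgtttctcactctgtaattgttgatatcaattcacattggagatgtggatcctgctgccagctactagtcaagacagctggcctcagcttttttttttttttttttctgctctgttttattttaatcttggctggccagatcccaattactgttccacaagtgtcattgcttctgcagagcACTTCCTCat

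The 2 immune libraries parted in genes of lymphocytes, Rag1 first among them by size. Rag1 (chr2:101638282-101649501, minus strand), which cuts DNA at antigen receptor genes in developing lymphocytes, had values of 1.37 and 209.8 in the immune libraries, 0 and 0.152 in the endothelial libraries and 0.772 and 0 in the epithelial libraries. Replicate 2 was high and every other E16.5 library, replicate 1 included, was low. The difference from the mean of the others was 4.22 ± 1.64 and did not pass (limma adjusted p = 0.099). With the pools as a block it did (limma adjusted p = 0.049), and without immune replicate 1 it was 7.46, the difference of the high library alone. Since only 1 immune library was high, no fit can show a difference shared by both replicates.

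The 24 genes shown as furthest above replicate 1 in replicate 2 were chosen after their values were seen, and no theme was tested among them. Besides Rag1 they held T cell genes and others, such as Khdc1a (0.383 and 66.4 in immune replicates 1 and 2), Slc16a5 (0 and 10.8) and Gpr25 (0.370 and 14.2). Cd3e, a chain of the T cell receptor complex, had 0.490 and 87.5 in immune replicates 1 and 2, and Cd8a had 0.673 and 67.4. Thy1 had 3.07 and 132, Rag2 0.931 and 61.1, the T cell factor Tcf7 1.60 and 50.8 and Ptcra, the surrogate alpha chain of T cell precursors, 0.0300 and 10.99. Replicate 1 was low and replicate 2 high for these genes. All 24 were below 10 in every other E16.5 fraction. The summed level of the T, NK and innate lymphoid list was 28.6 in replicate 1 and 480 in replicate 2, and that of the B lineage list, which holds Rag1 and Rag2, was 26.6 and 296. Of the 24 genes, 22 were also higher in immune P28 replicate 1 than in immune P28 replicate 2, for example Rag1 (429.7 and 0.727), Cd8a (456 and 36.8) and Ptcra (16.6 and 0.0275). The exceptions were Nkg7 and Gzma. The share over all genes was not counted for this or for the level below 10, so neither count is read as a trait of these genes. The P28 immune libraries also differed in other lists. In replicates 1 and 2 of P28 the summed level was 2138 and 583 for cell cycle genes and 576 and 2637 for macrophage genes. The P7 immune libraries did not part in this way, with Rag1 at 0.516 and 0.644 and Cd3e at 19.7 and 22.9. Dntt, which adds bases during receptor assembly, was at 0.0319 and 0.0504 in the E16.5 immune libraries and at 86.2 and 0.161 in those of P28.

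**Figure D4:**
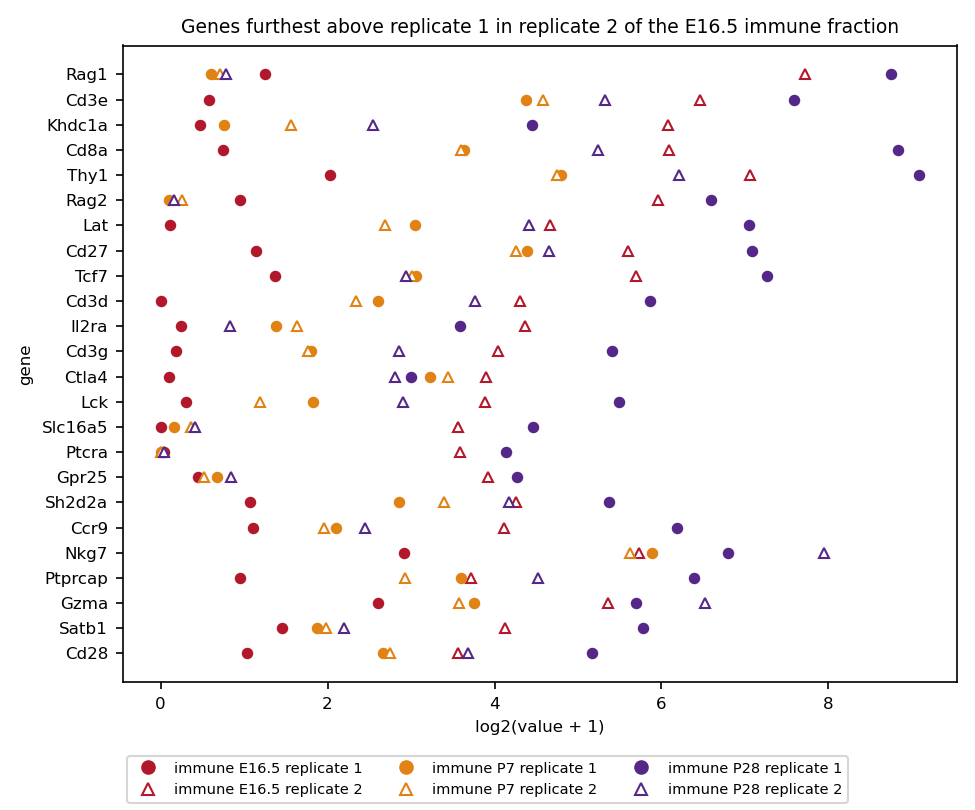
Values of 24 genes that were furthest above replicate 1 in replicate 2 of the E16.5 immune fraction, on the log2(value + 1) axis, in the 6 immune libraries of E16.5, P7 and P28. Circles are replicate 1 and triangles replicate 2 of an age. The red triangles of E16.5 and the purple circles of P28 lie to the right for most genes.

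Of 24 members of the T, NK and innate lymphoid list, 17 did not reach the filter of 1 in 2 libraries. Of the 7 tested, 4 were higher than both: Nkg7, Gzma, Gzmb and Il1rl1. Nkg7, of cytotoxic granules, had values of 6.53 and 52.01 in the immune libraries, 0 and 0 in the endothelial libraries and 0 and 0 in the epithelial libraries. Both immune libraries were above all others, replicate 2 the more so, and the difference was 4.32 ± 0.56 (limma adjusted p = 5.0e-05). Gzmb had 1.85 and 7.00 against at most 0.301, and without replicate 2 its difference was 1.31 (limma adjusted p = 0.14). Gzma differed by 3.78 ± 0.48, and by 2.41 without replicate 2. Thy1 passed against the mean (3.03 ± 0.94, limma adjusted p = 0.036), and without replicate 2 the difference was 0.51 (limma adjusted p = 0.73), against 5.54 without replicate 1. Il1rl1, the IL-33 receptor of mast cells and innate lymphoid cells, had 1.74 and 1.06 against at most 0.200. The list count was 5 without replicate 1 and 3 without replicate 2. Of 5 B lineage genes tested, Igll1 and Vpreb1, both parts of the surrogate light chain of B cell precursors, were higher than both, with 5.39 and 3.59 for Igll1 and 2.82 and 4.64 for Vpreb1 in the immune libraries. That count was 3 without replicate 1 and 1 without replicate 2. Without replicate 2, Vpreb1 had a difference of 1.22 (limma adjusted p = 0.096). Ms4a1 and Cd79a did not reach the filter.

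Few genes of the progenitor and erythroid lists were called higher. Of 12 progenitor genes, 6 were tested and 0 were higher than both, also at an unadjusted p below 0.05 in each limma comparison, and 4 were lower than the mean of the others: Cd34, Mecom, Procr and Kit. Without immune replicate 1, Cd34 and Kit lost these calls, and without immune replicate 2, Mecom did. Cd34 was at -1.41 in all libraries and at -0.89 without epithelial replicate 1 (limma adjusted p = 0.068). Procr, a receptor on stem cells and endothelium, had values of 2.38 and 2.36 in the immune libraries, 37.6 and 38.7 in the endothelial libraries and 1.84 and 1.20 in the epithelial libraries. The endothelial libraries were high and the other 4 low. Of 12 erythroid genes tested, 0 were higher than both by limma, against 1 at an unadjusted p below 0.05 in each comparison. The embryonic globin Hbb-y was the 1 member called higher than the mean of the others, with values of 12.8 and 3.36 in the immune libraries, 4.44 and 1.88 in the endothelial libraries and 1.20 and 1.76 in the epithelial libraries. The difference was 1.31 ± 0.37 (limma adjusted p = 0.02), and 0.48 without immune replicate 1 (limma adjusted p = 0.52). It also lost its call without endothelial replicate 2 (1.08) or epithelial replicate 1 (1.23). Hbb-y was called against the epithelial level and Tfrc against the endothelial one. The embryonic globin Hba-x had values of 95.7 and 6.24 in the immune libraries, 37.9 and 13.8 in the endothelial libraries and 7.47 and 5.28 in the epithelial libraries. Immune replicate 1 was the highest of the 6, and Hba-x was the only gene of replicate 1 that exceeded replicate 2 by at least 2 on the log2 scale among those at 10 or more. Tfrc, the transferrin receptor, was in the immune (33.6 and 32.4) and epithelial (46.7 and 53.6) libraries alike.

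Iron, haem and lipid handling genes divided. Of 12 iron and haem genes, 5 were higher than both: Hmox1, Slc40a1, Slc11a1, Trf and Lcn2. Slc40a1, the iron exporter ferroportin, had values of 8.31 and 7.28 in the immune libraries, 1.05 and 1.03 in the endothelial libraries and 2.39 and 1.17 in the epithelial libraries. Slc11a1, which moves metal ions out of the phagosome, had 6.46 and 4.92 against at most 0.161, and Lcn2, which binds bacterial iron carriers, 49.8 and 75.1 against at most 2.11. The immune libraries were above all others for the 3 genes. Hmox1, the haem oxygenase, had 40.4 and 23.8 against at most 11.6, and lost its call against the mean without replicate 1 (1.66, limma adjusted p = 0.067). The ferritin chain Ftl1 was abundant in all fractions, at 912 and 578 in the immune libraries, 373 and 340.5 in the endothelial libraries and 427 and 451 in the epithelial libraries. Of 13 lipid genes, 4 were higher than both: Apoe, Lpl, Plin2 and Lgals3. Apoe had values of 212 and 109 in the immune libraries, 2.69 and 3.60 in the endothelial libraries and 5.03 and 2.50 in the epithelial libraries, a difference of 5.14 ± 0.49 (limma adjusted p = 1.8e-06). Pltp, the phospholipid transfer protein, was endothelial (32.6 and 29.6, against 3.15 and 3.94 in the immune libraries).

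Adhesion molecules of leukocytes divided. Of 15 genes, 12 were tested, of which 8 were higher and 2 lower than the mean of the others, the latter being Icam2 and Itgb1. The count higher than both was 6, among them Itgb2, Itgam, Itgal, Itgb7 and Selplg. Itgb2, the beta chain of the leukocyte integrins, had values of 20.3 and 17.4 in the immune libraries, 0.191 and 0.165 in the endothelial libraries and 0.185 and 0.00906 in the epithelial libraries. Selplg, the ligand that lets leukocytes roll on selectins, had values of 13.4 and 17.5 in the immune libraries, 0.0231 and 0.161 in the endothelial libraries and 0.137 and 0 in the epithelial libraries. The groups did not overlap for either, with differences of 4.13 ± 0.32 and 3.92 ± 0.15 (limma adjusted p = 1.7e-07 and 1.0e-10). Icam1, a ligand of those integrins, had 20.7 and 18.3 in the immune libraries, 9.32 and 6.45 in the endothelial libraries and 32.4 and 30.6 in the epithelial libraries. The immune libraries lay between the other fractions. Icam2 was at 60.3 and 49.9 in the endothelial and 3.68 and 6.37 in the immune libraries, and the integrin beta chain Itgb1 at 63.3 and 68.6 and 26.8 and 25.7. Both were lower than the endothelial level (limma adjusted p = 1.2e-05 and 0.0031).

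No proliferation gene passed. None of 26 cell cycle genes was called in any of the 3 limma comparisons, and none had an unadjusted p below 0.05 against the mean. Mki67, a marker of cycling cells, had values of 286 and 407 in the immune libraries, 325 and 359 in the endothelial libraries and 260.2 and 274 in the epithelial libraries. The immune and endothelial libraries overlapped and both epithelial libraries lay below them, and the difference was 0.18 ± 0.40 (limma adjusted p = 0.84). Top2a, the topoisomerase of dividing cells, had values of 95.01 and 137 in the immune libraries, 124 and 129.8 in the endothelial libraries and 86.4 and 84.3 in the epithelial libraries. The median difference of the list was 0.17. In simulated data with the spread of these libraries the test recovered 57% of 100 genes changed by 1 on the log2 scale and 98% of 100 changed by 2. The changed genes were drawn at random from the more abundant ones, so these shares do not measure the power for the cell cycle list. Of 12 imprinted and fetal growth genes, 0 were higher and 2 were lower than both, Grb10 and Igf2bp1. H19 had values of 2191 and 1788 in the immune libraries, 1118 and 970.2 in the endothelial libraries and 4243 and 4669 in the epithelial libraries. It was abundant in every fraction, lowest in the endothelium. Grb10, which restrains growth factor receptors, had values of 33.1 and 20.4 in the immune libraries, 52.7 and 56.1 in the endothelial libraries and 58.8 and 62.9 in the epithelial libraries. Its difference was -1.12 ± 0.21 (limma adjusted p = 0.0014), and -0.78 without immune replicate 2 (limma adjusted p = 0.057). Igf2bp1, an RNA-binding protein, differed by -0.53 ± 0.11 and lost its call without immune replicate 1 (-0.46, limma adjusted p = 0.072).

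Outside the lists, the 12 largest differences among genes higher than both included further myeloid genes. Stfa2l1 (chr16:36156811-36161953, plus strand), a stefin that inhibits cysteine proteases, had values of 90.5 and 90.4 in the immune libraries, 0.342 and 0.466 in the endothelial libraries and 0.170 and 0 in the epithelial libraries. With Stfa2, at 45.5 and 36.3 against at most 0.199, it belongs to a cluster of close copies whose reads may be split. S100a4, a calcium-binding protein, had 117 and 73.9 against at most 3.61, and the sialic acid receptor Cd33 97.4 and 85.1 against at most 0.392. The inhibitory receptor Lilrb4 had 94.4 and 72.7, the formyl peptide receptor Fpr2 33.97 and 28.7 and the endolysosomal exonuclease Pld4 31.8 and 27.98, against at most 1.84, 0.335 and 0.105 elsewhere. Sh2d1b1, Apobr, Tifab, B4galnt1 and Arhgap30 completed the 12. The 12 differences ran from 4.84 ± 0.23 for Arhgap30 to 6.21 ± 0.44 for Stfa2l1, with limma adjusted p-values of 5.6e-10 and 7.3e-08.

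The genes furthest below both other fractions differed by less. Plk2 (chr13:110395046-110400844, plus strand), a polo-like kinase, had values of 35.9 and 39.9 in the immune libraries, 279 and 233 in the endothelial libraries and 83.4 and 66.2 in the epithelial libraries. The difference from the mean of the others was -1.84 ± 0.27 (limma adjusted p = 1.6e-04). Tjp1, the tight junction scaffold ZO-1, had values of 25.3 and 26.3 in the immune libraries, 149 and 143 in the endothelial libraries and 48.5 and 47.4 in the epithelial libraries. Map1b, a microtubule-associated protein, had values of 2.94 and 4.01 in the immune libraries, 21.5 and 26.8 in the endothelial libraries and 10.7 and 5.64 in the epithelial libraries. Lack of overlap with the other libraries was a condition for choosing these genes, as it was for the 12 above. Arhgap29, Ephb4, Sox11, Emp1 and Ndn made up the other 5, with Ndn at -1.50 ± 0.34 (limma adjusted p = 0.0048). Ndn lost its call without immune replicate 2 (-1.27, limma adjusted p = 0.083).

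Genes of the other fractions behaved unequally in the immune fraction. All 14 endothelial markers were below the endothelial level, and 12 were lower than the mean of the others. Cdh5, the endothelial cadherin, had values of 11.2 and 19.9 in the immune libraries, 275 and 276 in the endothelial libraries and 17.8 and 3.22 in the epithelial libraries. The immune libraries overlapped with the epithelial ones, and the call against the mean was lost without immune replicate 1 (-1.25, limma adjusted p = 0.21). All 14 epithelial markers were above the endothelial level, and 2 were below the epithelial level. The surfactant protein gene Sftpc had values of 2369 and 1543 in the immune libraries, 386 and 22.3 in the endothelial libraries and 3847 and 4568 in the epithelial libraries. It lay between the other fractions, as did the lung epithelial factor Nkx2-1, at 200.2 and 157 in the immune libraries, 32.96 and 2.49 in the endothelial libraries and 399.6 and 411 in the epithelial libraries. Spint1, an inhibitor of surface proteases, was the one member higher than the mean of the others, with values of 29.9 and 20.97 in the immune libraries, 1.28 and 0.0844 in the endothelial libraries and 16.5 and 18.3 in the epithelial libraries. Both immune libraries exceeded both epithelial ones there, unlike for the rest of the list. Over all genes tested, 2 (0.0176%) were above the mean of the others and also below the epithelial level, both by the limma call: Foxj1, the ciliated cell transcription factor, and the keratin gene Krt15, both named after their values were seen. Of 12 mesenchymal markers tested, 0 were called in the limma comparison with the mean and 1 had an unadjusted p below 0.05. The summed level of the mesenchymal list was 129 and 276 in the immune, 196.5 and 323 in the endothelial and 329 and 91.8 in the epithelial libraries.

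The fetal immune difference from the mean of the other fractions was then set against that of P7 with an interaction term. Of 12292 genes tested, 133 (1.08%) had a larger immune difference at E16.5 and 150 (1.22%) a smaller one, or 2.3% called either way. The balance of the counts turned with the fit, to 299 larger and 89 smaller without the P7 libraries of replicate 1 and to 169 larger and 366 smaller with the compared ages alone. All E16.5 libraries came from 1 sequencing run and all P28 libraries from another. The P7 libraries came from 3 runs, 1 of which was that of P28, and replicate 1 of P7 had its epithelial library in that run and its immune and endothelial libraries in another. No run held E16.5 libraries together with those of P7 or P28, so age and run cannot be told apart. Alveolar macrophage genes were smaller at E16.5 in 9 of 13 tested members. Siglecf was at 0.475 and 0.300 in the E16.5 and 34.5 and 23.9 in the P7 immune libraries. At P7, Itgax was at 43.2 and 36.4 against 0.744 and 1.19 at E16.5, and Atp6v0d2 at 50.6 and 87.6 against 0.137 and 0.0534. The ages did not overlap for these genes, with differences between the ages of -4.40 ± 0.58, -4.34 ± 0.58 and -5.61 ± 0.55 (limma adjusted p = 0.0015, 0.0015 and 9.6e-05). The count of the list was 4 to 6 without 1 of the immune libraries of either age.

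Ear2 was one of the 4 tested members of that list not called against P7 and of the 6 not called against P28. It stood at 2870.4 and 2996 in the P7 and 722 and 3772 in the P28 immune libraries and at 566 and 464 in those of E16.5. Its endothelial values, 0 and 0.779 at E16.5, were 5.79 and 14.4 at P7, and at P28 they were near 0 in replicate 1 and 18.6 in replicate 2. Its epithelial values, 1.41 and 1.09 at E16.5, were 1.86 and 4.85 in the P7 libraries and 2.87 and 3.40 in the P28 ones. The immune difference from the mean of the other fractions moved by -0.61 ± 1.29 against P7 and by -0.38 ± 1.30 against P28, and neither passed (limma adjusted p = 0.92 and 0.87). Lyz2 had a larger difference at E16.5. Its immune values of 2197 and 1558 were followed by 5812 and 7761 at P7 and 1837 and 7693 at P28, and its epithelial values of 14.8 and 14.7 by 3291 and 2992 at P7 and 10033 and 14945 at P28. The difference was larger at E16.5 by 4.33 ± 0.64 than at P7 and by 7.92 ± 0.65 than at P28 (limma adjusted p = 0.0032 and 4.4e-06), while the epithelial libraries of both later ages had the higher values and the fetal immune libraries were below those of P7.

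**Figure D5:**
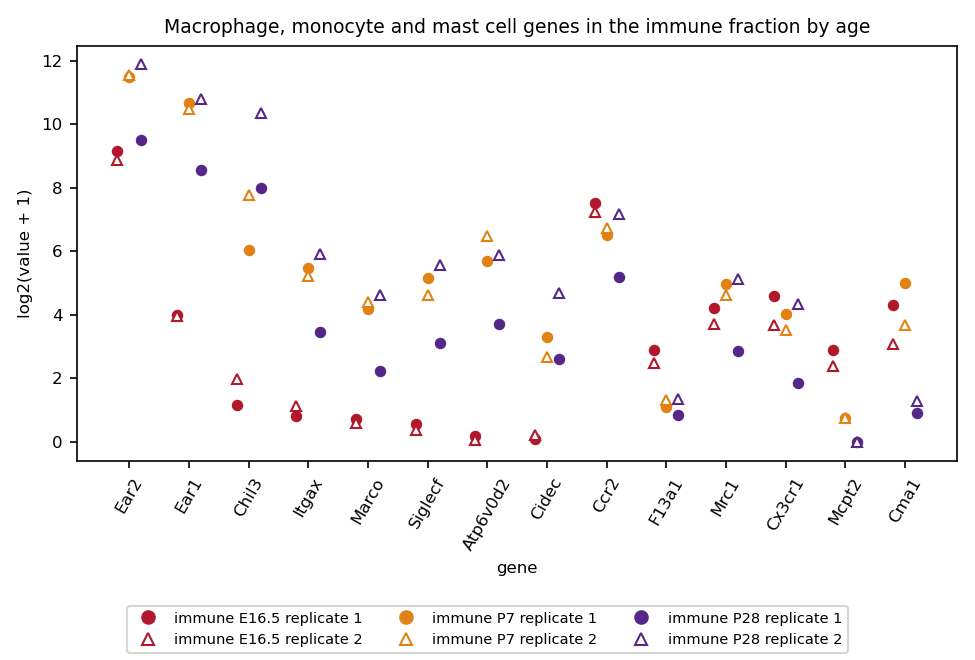
Values of 14 macrophage, monocyte and mast cell genes in the immune libraries of E16.5 (red), P7 (orange) and P28 (purple) on the log2(value + 1) axis; circles are replicate 1 and triangles replicate 2. Chil3, Itgax, Marco, Siglecf, Atp6v0d2 and Cidec are low at E16.5 and higher at both later ages, while Mcpt2 is highest at E16.5.

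Against P28, 1548 of 12264 genes (12.6%) had a larger immune difference at E16.5 and 982 (8.01%) a smaller one, or 20.6% called either way. Alveolar macrophage genes were smaller in 8 of 14 members, and the count was 8 to 11 without 1 immune library. Chil3 was at 1.22 and 2.96 in the E16.5 and 253 and 1318 in the P28 immune libraries, a difference of -6.39 ± 0.98 (limma adjusted p = 3.6e-04). Mast cell genes were larger at E16.5 in 6 of 9 members (3 to 6 without 1 immune library). Mcpt2 was at 6.44 and 4.25 in the fetal immune libraries, 0.695 and 0.681 in those of P7 and 0 and 0 in those of P28. Cma1 was at 18.7 and 7.41 in the fetal libraries, 30.7 and 11.8 in those of P7 and 0.870 and 1.45 in those of P28. Mcpt2 was highest in the fetal libraries, while the Cma1 values of P7 overlapped with the fetal ones. The differences between E16.5 and P28 were 2.64 ± 0.18 for Mcpt2 and 2.66 ± 0.45 for Cma1 (limma adjusted p = 1.3e-06 and 7.2e-04).

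The immune difference was larger at E16.5 than at P28 for part of the complement and macrophage genes. Complement counted 6 of 13 larger, and macrophage genes 6 of 19. The summed immune level of the complement list was 252 and 183 at E16.5 and 68.3 and 255 at P28. That of the macrophage list was 1078 and 804 at E16.5 and 576 and 2637 at P28. The ages overlapped for both lists, and the part of the other fractions in these counts was not tested. C1qc was at 107 and 59.2 at E16.5 and 21.1 and 36.01 at P28. Csf1r was at 60.3 and 41.8 at E16.5 and 15.3 and 77.5 at P28. C1qc did not overlap between the ages and Csf1r did. Without immune P28 replicate 1 the macrophage list turned to 2 members larger and 4 smaller. Its count of larger members was 2 without immune E16.5 replicate 1 and 13 without immune P28 replicate 2. The complement count ran from 4 to 9 in the fits without 1 immune library. Markers of other cell types moved the same way. All 12 alveolar type 2, all 10 alveolar type 1, 12 of 14 epithelial and 9 of 14 endothelial markers were larger at E16.5 than at P28. The summed level of the epithelial list in the immune libraries was 828 and 508.5 at E16.5 and 22.3 and 112.5 at P28, and that of the alveolar type 2 list was 3186 and 2342 at E16.5 and 297 and 1059 at P28. The part of these transcripts in the age differences was not tested. The immune difference of cell cycle genes was smaller at E16.5 in 21 of 26 members. Mki67 was at 286 and 407 in the E16.5 and 327 and 100.1 in the P28 immune libraries. Its endothelial values were 325 and 359 at E16.5 and 58.4 and 44.7 at P28, and its epithelial values 260.2 and 274 at E16.5 and 31.3 and 11.9 at P28. The other fractions thus had far lower values at P28 than at E16.5, and the summed immune level of the list was 1321 and 1755 at E16.5 and 2138 and 583 at P28. The count was 6 without immune E16.5 replicate 1, 6 without immune P28 replicate 1, the library with the high Rag1 and Cd8a values, and 26 without immune P28 replicate 2. Of 10 B lineage genes, 4 had a smaller difference at E16.5 and 2 a larger one, Igll1 and Vpreb1. The count of larger members was 0 without immune E16.5 replicate 1, 1 without immune E16.5 replicate 2 and 1 without immune P28 replicate 1. Igll1 was at 5.39 and 3.59 at E16.5 against 1.19 and 0.134 at P28, and Vpreb1 at 2.82 and 4.64 against 0.769 and 1.04.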

How the data were processed

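RNA was extracted from sorted lung fractions and libraries were made with a tagmentation kit (Nextera XT), per the labels. Alignment used TopHat2 2.0.9 and the build GRCm38 (mm10), as listed per the submitters' processing notes. The sources used here do not name the counting tool, annotation or strand setting. Values were deposited as a signal per gene, which the authors scaled to the same total in every library, as the file's own sums show. The smallest value above 0 was 1.4e-44, no whole-read steps were found, and so depth is unknown and no interval is given. Of 24371 entries, 27 with names turned into dates were left out.

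A single limma 3.58.1 model (trend, R 4.3.3) was fitted to log2(value + 1) of all 22 libraries in 11 groups, with Benjamini-Hochberg adjustment over all genes tested and a threshold of 0.05. The endothelial and epithelial libraries of E18.5, whose labels give no sequencing run, entered the shared spread but no comparison. Replicates are read from the codes as pools of animals. The limma p-values set a difference against the spread within groups, which was estimated over all 22 libraries and not from the E16.5 libraries alone. The main fit held no term for the pools. The immune fraction was compared with the mean of the other fractions and with each of them at E16.5, and this difference was compared with that at P7 and P28. Genes below a signal of 1 in all but 1 of the libraries compared were not tested. The code shared in the descriptions pairs the libraries by pool: deviations of the E16.5 libraries from their group means correlated by 0.209 to 0.261 within a pool, whereas the replicate numbers cross the pools in the epithelial fraction. The test was checked on simulated data of 11366 genes, where 10 unchanged genes were called.

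Named were Ptprc, Tyrobp, Pecam1 and Epcam; the 12 highest and 8 lowest differences among genes higher or lower than both, without overlap, with a mean of at least 10 on the higher side and outside the lists; up to 10 abundant members of each list, those that passed against the direction of their list and, where 12 or fewer passed, all of these; the ligand and receptor pairs; and the 6 highest and 6 lowest age differences. The age differences named were called and had a mean of at least 10 in the immune libraries of either age. Predicted genes and ribosomal protein genes were left out of these choices by size. Genes that differ between the immune replicates were chosen after their values were seen. The 41 lists hold 601 genes, 34 of them in more than 1 list. The members and lists were chosen with earlier results of these data known. Positions are from GENCODE M21, where 428 of 431 named genes had 1 position. Alternatives were another pseudocount, 2 other filters, size factors, fewer libraries in the fit, leaving out each library, the 2 with another age in their description or the P7 libraries of replicate 1, and replicate blocks.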

Additional observations from a re-analysis of the deposited data

Results flagged for a closer look

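The immune difference from the other fractions depended on age, by the interaction term of the limma model, for 283 genes between E16.5 and P7 and for 2530 genes between E16.5 and P28. The genes named are those with the 6 highest and the 6 lowest differences between the ages among called genes, for each pair of ages. They had a mean of at least 10 in the immune libraries of either age, and predicted and ribosomal protein genes were left out. Every difference is that of E16.5 minus the later age on the log2(value + 1) scale.

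Against P7, the immune difference was smaller at E16.5 for Atp6v0d2 (-5.61), Chil3 (-5.06), Gpnmb (-4.75), Ear1 (-4.53), Siglecf (-4.40) and Itgax (-4.34). All but Gpnmb are in the alveolar macrophage list. Gpnmb, a membrane glycoprotein, was at 1.94 and 0.887 in the E16.5 and 28.4 and 240.1 in the P7 immune libraries. It was larger at E16.5 for Lyz2 (4.33), C3 (4.31), Lcn2 (3.70), Lyz1 (2.88), S100a6 (2.59) and Sox9 (2.53). For Lcn2 the immune values were 49.8 and 75.1 at E16.5 and 87.9 and 262 at P7, and the epithelial values 2.11 and 1.75 at E16.5 and 192 and 396 at P7. The epithelial libraries differed more between the ages than the immune ones. C3 had epithelial values of 1.48 and 0.715 at E16.5 and 39.4 and 69.00 at P7. Sox9, a factor of the growing airway tips, was at 47.9 and 23.9 in the E16.5 and 2.52 and 0.886 in the P7 immune libraries, and at 83.3 and 107 in the E16.5 and 15.4 and 18.6 in the P7 epithelial ones. Atp6v0d2, Siglecf, Itgax, Lyz2 and C3 kept their calls in each of the 4 fits without 1 immune library of E16.5 or P7. Without immune E16.5 replicate 1, calls were lost for Chil3 (-4.64), Ear1 (-4.54), Lcn2 (4.00), Lyz1 (2.79), S100a6 (2.23) and Sox9 (2.04), and without immune E16.5 replicate 2 for Ear1 (-4.52), Gpnmb (-4.43), Lcn2 (3.41) and Lyz1 (2.97). Without immune P7 replicate 2, they were lost for Chil3 (-4.19), Ear1 (-4.63), Gpnmb (-3.23), Lyz1 (2.43), S100a6 (2.65) and Sox9 (2.08), and without immune P7 replicate 1 for Ear1 (-4.44), Lcn2 (2.92) and S100a6 (2.52).

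Against P28, it was smaller at E16.5 for Chil3 (-6.39), Fabp1 (-4.72), Hist1h2bk (-4.48), Atp6v0d2 (-4.47), Il1b (-4.40) and Hist1h2ac (-4.29). Hist1h2bk was at 546 and 49.5 and Hist1h2ac at 36.4 and 4.63 in the P28 immune libraries, and both lost their calls without replicate 1 of P28 (-2.76 and -2.92, limma adjusted p = 0.19 and 0.12). Both also lost them without immune E16.5 replicate 1 (-4.42 and -3.55), and Hist1h2bk did without immune E16.5 replicate 2 (-4.54). Il1b, the inflammatory cytokine, was at 0.517 and 0.327 in the E16.5 and 17.3 and 63.8 in the P28 immune libraries. It was larger at E16.5 for Lyz2 (7.92), Lcn2 (7.10), Sftpc (6.73), Sfta2 (6.41), Sftpb (6.31) and Slc34a2 (6.28). The last 4 are genes of alveolar type 2 cells. Sftpb was at 85.2 and 83.3 in the E16.5 and 6.03 and 27.5 in the P28 immune libraries, and at 179 and 224 in the E16.5 and 1445 and 1316 in the P28 epithelial ones. Lower values in the P28 immune libraries and higher values in the P28 epithelial ones both enter this difference.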

How the results depend on the processing

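Fits without a library kept the genes tested in all libraries. Without 1 library at a time, the called genes numbered 1092 to 1757 against the mean (1929 in all libraries), 2134 to 2542 against the endothelial level (3199), 899 to 1332 against the epithelial level (2006), 55 to 363 for E16.5 minus P7 (283), 1457 to 4060 for E16.5 minus P28 (2530), 461 to 522 higher than both (596) and 30 to 109 lower than both (160). The lowest P7 count was that without immune P7 replicate 2, and the P28 extremes were those without immune E16.5 replicate 1 and without immune P28 replicate 2.

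With at least 5 in 2 libraries, fewer genes were tested and 1100, 1852 and 1005 were called in the E16.5 comparisons, 325 higher and 86 lower than both. Without the 2 libraries of another age in their description, these counts were 1186, 2045 and 1071, with 20 lower than both and 59 for P7. With log2(value + 0.1), 1312 were called against the epithelial level, 82 were lower than both and 73 differed from P7. A P7 count of 162 came without a filter. A fit to the compared ages alone gave 535 for P7 and 372 lower than both. Without the P7 libraries of replicate 1, 388 differed from P7. The cause was not tested for any of these.

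With a block by pool, which is the pairing in the labels, 2257, 3561, 2380, 363 and 3161 genes were called in the 5 comparisons, 655 higher and 213 lower than both; with a block by replicate number, 2075, 3404, 2218, 265 and 2909. The pool block ended the calls of Nr1h3 and Scgb3a2 among 215 named genes called at E16.5 and changed no count by over 1.5 times. Among the named genes called in the full fit, none changed direction in any of these fits. Named genes not called there were not checked for this. Depth is unknown, so absence cannot be told from a low level.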
